A study of Homo sapiens with 30 samples.

Results

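The genes described here encode subunits of the mitochondrial oxidative phosphorylation machinery. They were picked by name: every array probe whose gene name starts with NDUFA, NDUFB, NDUFC, NDUFS, NDUFV (complex I), UQCR (complex III), COX4, COX5, COX6, COX7, COX8 (complex IV) or ATP5 (complex V) was taken, and assembly factors named NDUFAF and pseudogene names were left out. This gave 115 of the 66733 probes in the series, for 85 gene names. A probe was tested if some group had all 3 of its arrays well above background there, which held for 106 of the 115 member probes and for 82 of the 85 names. Of these names 73 are genes of ordinary subunits, 38 of complex I, 8 of complex III, 10 of complex IV and 17 of complex V. The other names are tissue isoforms, non-coding neighbours such as NDUFA6-DT, and COX7A2L, ATP5IF1 and ATP5MGL, which are not ordinary subunits. NDUFA4 is counted in complex I by its name, although its protein is now placed in complex IV. ATP5MPL and ATP5MD are the names in the files for ATP5MJ and ATP5MK.

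Oxidative phosphorylation passes electrons from NADH and succinate along complexes I to IV in the inner mitochondrial membrane, pumps protons, and lets the protons flow back through complex V, the ATP synthase. Complex I has core subunits that carry the flavin and iron-sulfur clusters and many accessory subunits around them, and complex V has a catalytic F1 head, a peripheral stalk, a rotating c ring and small membrane subunits. A few subunits are encoded in mitochondrial DNA, while all the genes picked here are nuclear, so their messages are made in the nucleus and their proteins imported.

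The cells were BEAS-2B, an immortalized human bronchial epithelial cell line that carries viral T antigens, grown on Transwell inserts at the air-liquid interface, with the apical side open to air. They received 10 mg whole birch pollen, dispersed in a sedimentation chamber, or a mock exposure (labelled air) in the same run, in which per the methods a mesh kept the pollen off the cells, and were lysed after 10min, 55min, 2h25min, 6h50min or 24h. Each of these 10 groups had 3 single-colour Agilent arrays, 30 in all, and per the methods the exposures were repeated on different days. Array by array, 44.7 to 59.3% of the probes were well above background, and 0 member probes were saturated. The level of a gene is given as log2 of its background-subtracted intensity minus the 75th percentile of the array, so 0 is the brightness of that percentile and 1 unit is a factor of 2. Such levels may be compared between arrays for the same probe and not between probes.

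The arrays lay on 5 slides, and the layout touches the comparisons between times and, at 55min, also that of pollen with mock. All 6 arrays of 6h50min lay on a slide of their own that was scanned in another run, with a 75th percentile of 578 to 1151 intensity units against 1044 to 2111 on the other arrays. Differences between 6h50min and another time therefore cannot be told apart from that slide and its scan. The arrays of 2h25min and 24h came from the same scan run, and the comparison of 24h with 2h25min was added for this reason. All 6 arrays of 24h and 2 of the 6 of 2h25min (replicate 3 of each condition) lay on slide 5, and the other 4 of 2h25min on slide 4, so time and slide are still largely confounded there. The pollen array of 55min replicate 1 was of another design and lacked 9 of the tested member probes. It also lay alone on slide 1 and was scanned on a day of its own. Mock replicate 1 of 55min lay on slide 3, and replicates 2 and 3 of both conditions on slide 4. At 55min pollen and mock are thus not balanced over slide, scan and design.

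The first question was whether whole pollen changed the messages of these genes. No subunit gene passed the test between pollen and mock at any of the 5 times. With limma's moderated test and Benjamini-Hochberg adjustment over all 32100 tested probes, 0 of 106 member probes were called at 10min (all probes 0%), at 55min (0.00312%), at 2h25min (0.0343%), at 6h50min (0.0436%) and at 24h (0.00312%), where a call needs an adjusted p under 0.05 and at least a 1.1-fold change. At an unadjusted p under 0.05 there were 1, 3, 0, 1 and 1 member probes, respectively. The test of whether the pollen effect changed over the times also called 0 members (all probes 0.00312%).

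The intervals show how small a difference these arrays could still hold. Among the 73 subunit genes the difference of pollen from mock ranged from -0.26 to 0.16 at 10min, from -0.16 to 0.22 at 55min, from -0.17 to 0.22 at 2h25min, from -0.19 to 0.37 at 6h50min and from -0.19 to 0.26 at 24h, on the log2 scale. The 95% interval of the difference, without adjustment for the number of genes, lay within 1.5-fold in either direction for all 73 genes at 10min, 55min, 2h25min and 24h, and for 72 of them at 6h50min. The exception was ATP5PD, a subunit of the peripheral stalk. Its mock level at 6h50min was 5.21, 6.10 and 5.99 on the 3 arrays and its pollen level was 6.02, 6.10 and 6.28. A single low mock array set the difference of 0.37 (95% interval -0.03 to 0.77), and the groups overlapped.

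The subunit genes leaned together by small amounts rather than one by one. At 10min 11 of 73 were higher in pollen, with a median difference of -0.08, and at 55min 51 of 73 were higher, with a median of 0.05. The medians were -0.02 at 2h25min, 0.01 at 6h50min and -0.02 at 24h, with 25, 38 and 27 genes higher. Over all 106 member probes the medians were -0.07, 0.03, -0.03, -0.01 and -0.02, beside 0.01, -0.01, -0.03, 0.00 and 0.00 over all tested probes. The lean at 10min moved with the scaling of the arrays: 21 of the 106 probes were higher in pollen with the 75th percentile and 42 after quantile normalization, where the median was -0.02. On each array the median level over 72 subunit genes, relative to each gene's mean, was lower in pollen in all 3 same-numbered pairs of 10min (-0.22 against -0.11, -0.02 against 0.06 and -0.05 against 0.01), and after quantile normalization in 2 of the 3. The lean at 55min turned: 64 of the 106 probes were higher as reported, 41 in the log2 values as deposited, with a median of -0.04, and 2 with the percentile over each array's own probes, with a median of -0.36 beside -0.37 over all tested probes. The array of the other design is in that group.

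**Figure D1:**
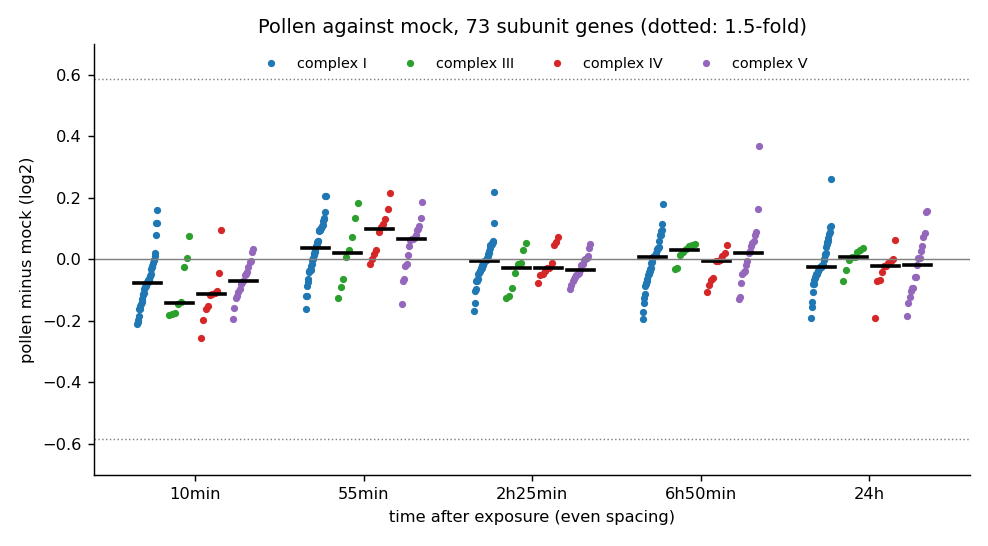
Difference of pollen from mock (log2, y axis) for each of the 73 subunit genes (points, coloured by complex) at the 5 times (x axis, evenly spaced), with bars at the median of each complex and dotted lines at 1.5-fold. The points stay between -0.26 and 0.37, and 0 of them was called.

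Single genes are given as values, since none passed the test. NDUFB7, an accessory subunit of complex I, had the smallest adjusted p of any member and time (0.598 at 6h50min, difference -0.19, SE 0.08). Its level at 6h50min was 3.02, 3.15 and 2.95 in mock and 2.79, 2.90 and 2.85 in pollen, so that every pollen array lay below every mock array. The groups of NDUFB7 were also apart, with pollen lower, at 10min (-0.15) and at 2h25min (-0.14). NDUFB10, another accessory subunit, had levels of 4.24, 4.29 and 4.21 in mock and 4.56, 4.51 and 4.45 in pollen at 24h. These groups did not overlap, and the difference of 0.26 (SE 0.12) had an unadjusted p of 0.0336 and an adjusted p of 1.00 in the limma fit.

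Among the 73 subunit genes the 3 pollen arrays lay all above or all below the 3 mock arrays in few cases: 4 lower at 10min, 3 higher and 1 lower at 55min, 2 higher and 4 lower at 2h25min, 2 higher and 3 lower at 6h50min, and 2 higher at 24h. With 3 arrays against 3, groups also come apart by chance, and no share over all tested probes is given here. These counts, and the separate groups of NDUFB7 and NDUFB10, are therefore no result about the members. The members with the smallest p among those with 1 sign in all same-numbered pairs were as follows. At 10min the differences were 0.17 for a second probe of NDUFA10, 0.08 for NDUFAB1 and 0.12 for NDUFA1, and -0.26 for COX7B, -0.20 for COX6A1, -0.15 for NDUFB7 and -0.20 for NDUFB10. At 55min they were 0.25 for a second probe of NDUFA12, 0.21 for NDUFA10, 0.22 for COX5A and 0.30 for a second probe of NDUFC2, and -0.22 for a probe of NDUFA6-DT, -0.12 for the first probe of NDUFC2 and -0.12 for UQCRC1. At this time the NDUFC2 probes pointed opposite ways, and all 4 positive values turned negative when the percentile was taken over each array's own probes.

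At 2h25min the positive values were 0.22 for NDUFA9, an accessory subunit, 0.18 and 0.14 for COX7A2L and 0.17 for NDUFV2-AS1, and the negative ones were -0.20, -0.28 and -0.20 for NDUFA6-DT and -0.14 for NDUFB7. At 6h50min they were 0.18 for NDUFS6, 0.37 for ATP5PD, 0.16 for ATP5MG and 0.20 for a probe of NDUFA10, and -0.19 for NDUFB7, -0.17 for NDUFA13, -0.12 for a probe of NDUFV2 and -0.16 for NDUFA6-DT. NDUFA13 was at 0.06 after another background correction and at 0.02 in the table as deposited. At 24h they were 0.26 for NDUFB10, 0.26 for a second probe of NDUFV3, 0.15 for ATP5PO and 0.09 for NDUFA13, and -0.19 for NDUFB3, -0.19 for COX7B, -0.19 for ATP5MF and -0.34 for NDUFA4L2. None of these was called.

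The second question was how the genes moved with time after the exposure, in mock and in pollen alike. Between 2h25min and 24h many subunit messages changed, and they changed in both directions: of the genes that passed the test, most small and accessory subunits rose, and most subunits of the F1 head, the complex I core and the large part of complex III fell. In mock 48 of the 106 member probes were called at 24h against 2h25min (all probes 27.4%), 32 higher (all probes 12.5%) and 16 lower (all probes 14.9%). In pollen 42 were called (all probes 23%), 32 higher (all probes 11.2%) and 10 lower (all probes 11.8%). So the share of members called was above the share over all probes for higher values and close to it for lower ones. The median change was 0.16 in mock and 0.15 in pollen over the member probes, beside -0.07 and -0.02 over all tested probes. This gap moved with the scaling. After quantile normalization the medians were 0.06 and 0.05, beside 0.01 and 0.02 over all tested probes. After another background correction they were 0.16 and 0.17, beside 0.05 and 0.19, so in pollen the members lay no higher. With the percentile over each array's own probes they were 0.25 and 0.18, beside 0.01 and 0.01. In bulk RNA, fewer cells of a kind and less RNA per cell cannot be told apart.

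Mock and pollen showed the same picture, from arrays that are not shared though they lay on the same slides. A total of 36 probes were called in the same direction in both, 27 higher and 9 lower, which is 75% of the mock calls and 85.7% of the pollen calls, and 0 were called in opposite directions. The sign of the change was the same for 100 of the 106 probes. Across these 106 probes the changes in mock and in pollen correlated with a Pearson r of 0.943, given as a description, since several probes belong to 1 gene and both axes share slides.

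**Figure D2:**
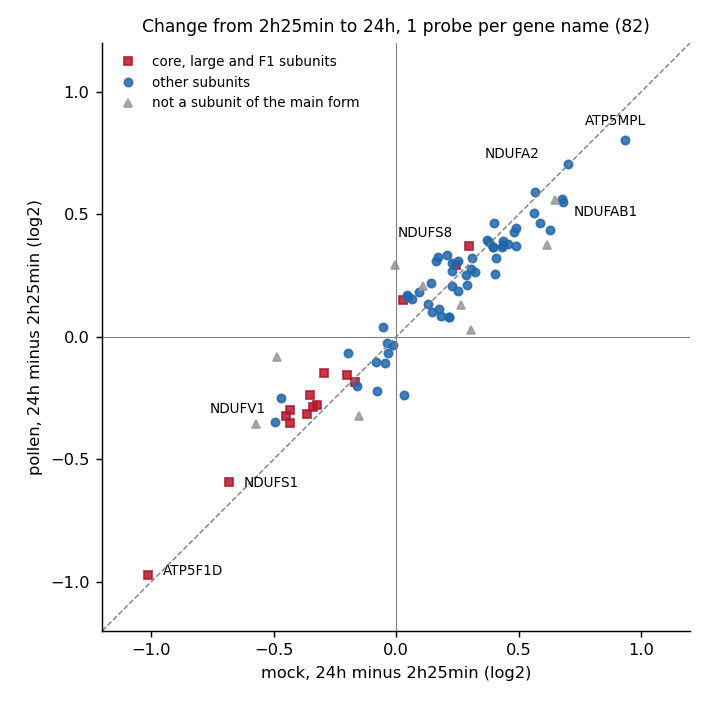
Change from 2h25min to 24h (log2) in mock (x axis) and in pollen (y axis) for 1 probe of each of the 82 gene names, marked by role, with a dashed line where both changes are equal. Core, large and F1 subunits mostly sit at the lower left, with ATP5F1D at -1.01 and -0.97, and other subunits mostly at the upper right, with ATP5MPL at 0.93 and 0.80.

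Grouped by role, 15 genes encode complex I core subunits, large complex III subunits or F1 subunits, and 58 encode the others. Of the 15, in mock 1 rose and 10 fell with a median change of -0.34, and in pollen 1 rose and 5 fell with a median of -0.28. Of the 58, in mock 25 rose and 1 fell with a median of 0.24, and in pollen 24 rose and 0 fell with a median of 0.27. At an unadjusted p under 0.05 the limma fit held 3 of the 58 as lower in pollen. The split into these roles was made with the values known, and the difference between the roles was not tested, so the counts only describe it. Over all 106 member probes the share called lower was no larger in pollen, and hardly larger in mock, than over all probes.

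The level of each role group on an array, as the median over its genes of the difference from each gene's mean over the 30 arrays, shows the same split. For the core, large and F1 subunits it ran from 0.08 to 0.12 on the mock arrays and from 0.01 to 0.11 on the pollen arrays at 2h25min, and from -0.34 to -0.22 and from -0.30 to -0.16 at 24h. For the other subunits it ran from -0.04 to 0.00 and from -0.08 to 0.02 at 2h25min, and from 0.14 to 0.31 and from 0.15 to 0.31 at 24h. In both conditions the 3 arrays of 24h lay apart from the 3 of 2h25min, in opposite directions for the 2 groups.

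**Figure D3:**
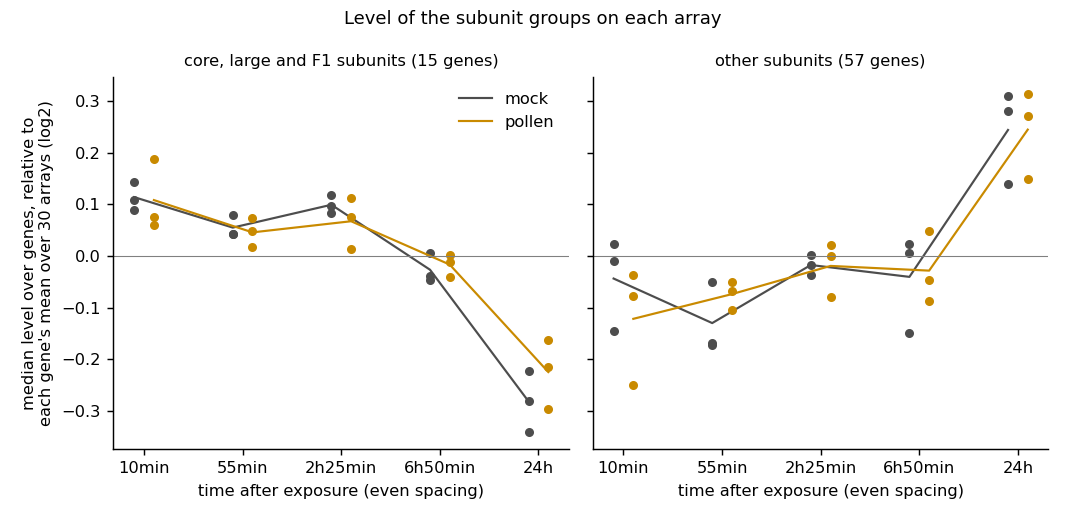
Median level of 15 core, large and F1 subunit genes (left) and of the 57 other subunit genes measured on all arrays (right), relative to each gene's own mean (log2, y axis), on each array (points) with group means (lines) for mock and pollen over the 5 times (x axis, evenly spaced). At 24h the left panel lies at -0.34 to -0.16 and the right panel at 0.14 to 0.31, and the points of mock and pollen overlap.

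Complex V held both extremes. Of the 5 F1 subunits, which form the catalytic head and its central stalk, 4 fell in mock and 1 fell in pollen. ATP5F1D, the delta subunit of that stalk, was at 2.23, 2.51 and 2.48 in mock and 2.02, 2.55 and 2.36 in pollen at 2h25min, and at 1.49, 1.36 and 1.33 in mock and 1.45, 1.25 and 1.30 in pollen at 24h. All arrays of 24h lay below all arrays of 2h25min. The change was -1.01 in mock (SE 0.12, 2.02-fold lower, adjusted p = 1.7e-06) and -0.97 in pollen (SE 0.12, 1.96-fold lower, adjusted p = 5.3e-06). Its probe spans exons and covers chr19:1242585-1244131 on hg19, the build of the files.

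The catalytic subunit gene ATP5F1B and its partner ATP5F1A had smaller changes. ATP5F1A, the alpha subunit, changed by -0.32 in mock (adjusted p = 0.0279) and by -0.28 in pollen (adjusted p = 0.0678). ATP5F1B, the beta subunit, changed by -0.37 (adjusted p = 0.0264) and by -0.32 (adjusted p = 0.0619), and ATP5F1C, the gamma subunit, by -0.34 (adjusted p = 0.0382) and by -0.29 (adjusted p = 0.0897). These fell in mock, while in pollen they missed the threshold. Whether the change of these genes differed between mock and pollen was not tested by itself. The test above of whether the pollen effect changed over the times called 0 members. It took all the times together, so it does not answer this.

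The other parts of complex V moved up or stayed below the threshold. Of the 5 small membrane subunits 4 rose in mock and 3 in pollen, of the 3 c ring genes 1 and 2 rose, and of the 4 peripheral stalk genes 1 rose in each, which was ATP5PF at 0.40 and 0.46. ATP5MPL, a small membrane subunit, was at 3.09, 2.88 and 3.16 in mock and 3.09, 2.94 and 3.07 in pollen at 2h25min, and at 4.11, 4.02 and 3.80 in mock and 4.02, 3.83 and 3.66 in pollen at 24h. Every array of 24h was higher than every array of 2h25min. The change was 0.93 in mock (SE 0.11, 1.91-fold higher, adjusted p = 2.1e-06) and 0.80 in pollen (SE 0.11, 1.75-fold higher, adjusted p = 2.0e-05), at chr14:104378627-104378686 on hg19. ATP5MF, another small membrane subunit, rose by 0.68 and 0.56, and its second probe by 0.56 and 0.59. ATP5MC1, which encodes the c subunit that turns with the proton flow, rose by 0.48 and 0.43, while ATP5MC3, a gene for the same mature protein, was at 0.18 and 0.08 and was not called.

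**Figure D4:**
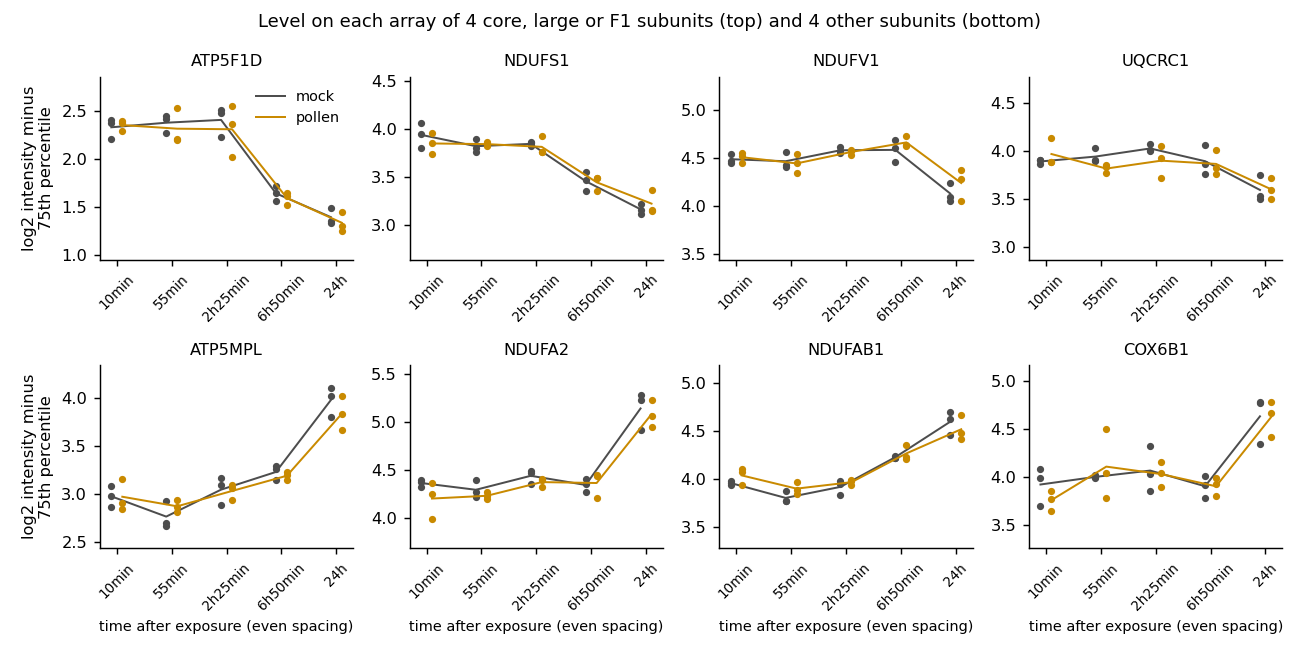
Level (log2 intensity minus the array's 75th percentile, y axis) of 8 genes on each array (points) with group means (lines) in mock and pollen over the 5 times (x axis, evenly spaced): core, large or F1 subunits in the top row and other subunits in the bottom row. Between 2h25min and 24h every gene of the top row goes down and every gene of the bottom row goes up, in mock and in pollen, as ATP5F1D does from 2.23, 2.51 and 2.48 to 1.49, 1.36 and 1.33 in mock. The 8 genes were picked with earlier results known, so the uniform rows do not stand for the roles. The core subunit NDUFS8, which rose, and the accessory subunit NDUFB10, which fell in mock, are not shown.

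In complex I the genes called lower were mostly core and those called higher mostly accessory, with most accessory genes not called. Of the 7 core genes 1 rose and 4 fell in mock, and 1 rose and 3 fell in pollen. NDUFS1, the largest core subunit, which holds iron-sulfur clusters, was at 3.82, 3.85 and 3.86 in mock and 3.75, 3.76 and 3.92 in pollen at 2h25min, and at 3.11, 3.22 and 3.16 in mock and 3.16, 3.15 and 3.36 in pollen at 24h. The arrays of the 2 times did not overlap in either condition. The change was -0.68 in mock (SE 0.09, 1.60-fold lower, adjusted p = 4.9e-06) and -0.59 in pollen (SE 0.09, 1.51-fold lower, adjusted p = 4.1e-05), at chr2:206988874-206988933 on hg19.

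NDUFV1, the core subunit that binds NADH and the flavin, was at 4.55, 4.57 and 4.62 in mock and 4.53, 4.58 and 4.58 in pollen at 2h25min, and at 4.24, 4.09 and 4.06 in mock and 4.38, 4.05 and 4.28 in pollen at 24h. Again no array of 24h reached one of 2h25min, and the change was -0.45 in mock and -0.32 in pollen (adjusted p = 0.00042 and 0.0086). NDUFS3, a core subunit of the matrix arm, fell by 0.44 and 0.35. NDUFV2, which carries an iron-sulfur cluster, fell by 0.20 in mock and was at -0.15 in pollen, not called. The core subunit that rose was NDUFS8, at 0.30 and 0.37, and NDUFS7 was called in neither condition.

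Of the 31 accessory genes 12 rose and 1 fell in mock, and 10 rose and 0 fell in pollen. NDUFA2, a small accessory subunit, was at 4.47, 4.49 and 4.36 in mock and 4.39, 4.41 and 4.32 in pollen at 2h25min, and at 5.22, 5.28 and 4.91 in mock and 5.23, 5.06 and 4.95 in pollen at 24h. The times did not overlap, and the change was 0.70 and 0.71 (SE 0.10 in each, adjusted p = 3.0e-05 and 4.5e-05). NDUFAB1, which is also the acyl carrier protein of mitochondrial fatty acid synthesis, was at 3.97, 3.83 and 3.95 in mock and 3.98, 3.94 and 3.99 in pollen at 2h25min, and at 4.70, 4.63 and 4.46 in mock and 4.66, 4.48 and 4.41 in pollen at 24h. It too was higher on all arrays of 24h, by 0.68 and 0.55 (adjusted p = 2.1e-06 and 3.7e-05). NDUFA6 rose by 0.63 and 0.43 and NDUFB3 by 0.59 and 0.46.

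The accessory gene that fell was NDUFB10, by 0.47 in mock (adjusted p = 0.0034), and in pollen it was at -0.25 (adjusted p = 0.127). NDUFB8 and NDUFA9, whose proteins are used as markers of assembled complex I, were not called: NDUFB8 was at 0.13 in mock and 0.13 in pollen, and NDUFA9 at 0.03 and -0.24. A second NDUFB8 probe was at 0.23 in mock and rose by 0.33 in pollen.

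In complex III, which passes electrons from ubiquinol to cytochrome c, 2 of the 3 large subunit genes fell in mock and 1 in pollen. UQCRC1, a core protein of the complex, was at 3.99, 4.01 and 4.07 in mock and 3.72, 4.05 and 3.92 in pollen at 2h25min, and at 3.75, 3.50 and 3.53 in mock and 3.72, 3.59 and 3.50 in pollen at 24h. In mock the times were apart, and in pollen the lowest array of 2h25min lay just above the highest of 24h. The change was -0.43 and -0.30 (adjusted p = 0.0028 and 0.0395). UQCRFS1, the Rieske iron-sulfur protein, fell by 0.35 in mock and was at -0.24 in pollen (adjusted p = 0.0567), and UQCRC2 was at -0.17 and -0.18 and was not called.

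Of the 5 small complex III genes 1 rose in mock and 2 in pollen. UQCR10 rose by 0.56 and 0.51, and UQCRQ was at 0.21 in mock and rose by 0.33 in pollen. UQCRB, a ubiquinone-binding subunit, was at 0.23 and 0.21 on its brighter probe and was not called.

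In complex IV, the cytochrome c oxidase, all 10 genes are nuclear subunits around a catalytic centre encoded in mitochondrial DNA. Of these 6 rose in both conditions and 0 fell, with medians of 0.34 and 0.35, and the limma fit gave 0 of the 10 as lower at an unadjusted p under 0.05. COX6B1, which faces the intermembrane space, was at 3.85, 4.33 and 4.03 in mock and 4.05, 4.16 and 3.90 in pollen at 2h25min, and at 4.78, 4.78 and 4.35 in mock and 4.78, 4.67 and 4.42 in pollen at 24h. The lowest arrays of 24h lay close to the highest of 2h25min without overlap, and the change was 0.56 and 0.59 (SE 0.16 in each, adjusted p = 0.0102 and 0.0092). COX4I1, the subunit at which ATP regulates the enzyme, rose by 0.46 and 0.38, COX7A2 by 0.43 and 0.39, COX7B by 0.49 and 0.37, COX8A by 0.38 and 0.39, and COX6A1 by 0.31 and 0.32. COX5A was at 0.29 and 0.21 and COX6C at 0.25 and 0.19, and neither was called.

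The changes between 2h25min and 24h were also computed with the slides taken into account. With the slide as a fixed term, 38 probes were called in mock and 28 in pollen, and all 48 and 42 probes called without it kept their sign. The share of all probes called with that term is not given here. The slide that held both times had 1 array of 2h25min and 3 of 24h in each condition. Within it, again all 48 and 42 kept their sign. Both checks reuse arrays from which these probes were called, so the kept signs are not independent and do not separate time from slide. A count of calls within that slide assumes that the lone array of 2h25min varies like the other groups.

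Another scaling changed the number of calls and the balance of the 2 directions. With the percentile over each array's own probes 12 probes were called in mock (9 higher and 3 lower) and 5 in pollen (4 higher and 1 lower), and NDUFS1 was called in neither. After quantile normalization 22 probes were called higher and 18 lower in mock, a share of 55.0% higher against 66.7% with the 75th percentile, and 22 and 12 in pollen, 64.7% against 76.2%. In the log2 table as deposited, 23 were higher and 19 lower in mock and 23 and 15 in pollen. These are counts of members only, without the shares of all probes called under each scaling. All 48 and 42 called probes kept their sign under quantile normalization, under another background correction and in the deposited table. These scalings reuse the arrays from which the probes were called, so the kept signs are not independent. Signs under the percentile over each array's own probes were not counted. In the quantile-normalized values the other subunits were still at 0.05 to 0.15 at 24h in mock and 0.05 to 0.13 in pollen, and the core, large and F1 subunits at -0.37 to -0.30 and -0.31 to -0.21.

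Several probes for 1 gene did not always give 1 answer. Among the subunit genes 15 had more than 1 tested probe, 32 probes in all, and between 2h25min and 24h the probes of 7 genes had opposite signs in mock and of 7 in pollen, 6 of them in both (ATP5F1E, NDUFA10, NDUFC2, NDUFV3, UQCR10 and UQCRB). For ATP5F1E, the epsilon subunit of F1, the brighter probe at chr20:57603812-57603871 changed by 0.24 and 0.29 and was not called, and the other, at chr20:57601028-57601087, fell by 0.89 and 0.67. On this dimmer probe the levels at 2h25min were -4.41, -3.85 and -4.29 in mock and -4.53, -4.23 and -4.38 in pollen, and at 24h -5.03, -5.32 and -4.87 and -5.05, -4.90 and -5.20. For UQCR10 2 probes rose, by 0.56 and 0.49 in mock and by 0.51 and 0.50 in pollen, and the probe at chr22:30165937-30165996 fell by 0.26 and 0.32. For NDUFC2 the brighter probe rose by 0.49 and 0.44, while the other was at -0.26 and -0.32 and was not called. The second probe of UQCRB was at -0.42 in mock and fell by 0.50 in pollen. The counts by gene above take the brightest probe, by its mean over the 30 arrays.

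Among the non-coding neighbours only NDUFA6-DT passed the test. Of 7 tested probes for NDUFA6-DT, NDUFB2-AS1 and NDUFV2-AS1, 3 fell in mock and 2 in pollen, all of them for NDUFA6-DT, a transcript divergent to NDUFA6. Its brightest probe fell by 0.57 and 0.35, while NDUFA6 itself rose by 0.63 and 0.43. The regulator ATP5IF1, which blocks the ATP synthase from running backwards, was called on 1 of its 2 probes in pollen, at 0.36. COX7A2L, which helps tie complexes III and IV together, rose on both probes, by 0.62 and 0.69 in mock and by 0.38 and 0.45 in pollen.

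The tissue and hypoxia isoforms were mostly dim. COX4I2, COX7A1 and COX7B2 had no probe well above background throughout any group and were not tested, and COX8C was not a member under the names of the files. NDUFA4L2, an isoform known to respond to low oxygen, was above background on every array. It was at -3.82, -3.87 and -3.36 in mock and -3.94, -3.85 and -4.02 in pollen at 2h25min, and at -2.90, -2.97 and -3.24 in mock and -2.99, -3.72 and -3.43 in pollen at 24h. It rose by 0.65 in mock (adjusted p = 0.0361), and in pollen its change of 0.56 was not called (adjusted p = 0.0805).

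COX6A2, the muscle isoform, was above background on all 3 arrays only at 10min and in the mock group of 55min, and its change from 2h25min to 24h was -0.15 in mock and -0.32 in pollen, not called. COX6B2, the testis isoform, had 2 probes. The dimmer was at -3.32, -4.28 and -3.76 in mock and -6.60, -4.37 and -4.26 in pollen at 55min, a difference of -1.29 (unadjusted p = 0.0102, adjusted p = 0.92 in the limma fit). The low value came from the array of the other design, and the other COX6B2 probe was at 2.47, 2.71 and 2.70 in mock and at 1.95, 2.59 and 3.30 in pollen, with overlapping groups.

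Between neighbouring times no member passed the test up to 2h25min. At 55min against 10min 0 members were called in mock (all probes 0.187%) and 0 in pollen (all probes 0.841%), and at 2h25min against 55min 0 in mock (all probes 0.0156%) and 0 in pollen (all probes 0.202%). At an unadjusted p under 0.05 the limma fit gave 12 and 7 members in the first step and 6 and 5 in the second. With weights on the arrays, 14 members were called in mock in the first step and 1 in pollen in the second. For the unadjusted counts and the weighted fit no share over all probes is given here, so they describe only the members.

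The steps into and out of 6h50min carry the separate slide. At 6h50min against 2h25min 18 members were called in mock (all probes 32.4%), 7 higher (all probes 9.9%) and 11 lower (22.6%), and 16 in pollen (all probes 31%), 4 higher (11.1%) and 12 lower (19.9%), below the shares over all probes. ATP5F1D was lower on the 6h50min arrays, by 0.76 in mock and 0.72 in pollen, as was NDUFA13, an accessory subunit also known as GRIM-19, by 0.51 and 0.68. A second probe of UQCRB fell by 0.56 and 0.61 and a second probe of NDUFB6 by 0.42 and 0.51. NDUFA12 fell by 0.40 in mock and by 0.43 on its second probe in pollen. NDUFAB1 rose by 0.31 and 0.30, COX7A2L by 0.55 and 0.30 on its second probe, and ATP5IF1 by 0.36 and 0.37. NDUFA8 rose by 0.39 in mock and NDUFA10 by 0.31 in pollen.

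At 24h against 6h50min 54 members were called in mock (all probes 40.5%), 44 higher (all probes 24.7%) and 10 lower (15.9%), and 47 in pollen (all probes 36.2%), 35 higher (21.8%) and 12 lower (14.5%). NDUFA13 was higher at 24h than at 6h50min by 0.72 in pollen, while its change from 2h25min to 24h was -0.05 in mock and 0.04 in pollen. Its lower level at 6h50min cannot be told apart from the slide and scan of that time. A second probe of COX8A rose by 0.83 and 0.73, NDUFA6 by 0.82 and 0.72, NDUFA2 by 0.80 and 0.72, COX6B1 by 0.73 and 0.72, and ATP5MPL by 0.75 in mock. NDUFS3 fell by 0.56 and 0.58, a second probe of NDUFC2 by 0.54 and 0.47, 2 probes of NDUFA6-DT by 0.62 and 0.49 in mock and by 0.52 and 0.52 in pollen, ATP5F1C by 0.55 in mock and the second probe of ATP5F1E by 0.55 in pollen. Another scaling shifts these steps: the median over all probes at 6h50min against 2h25min in mock was -0.15 with the 75th percentile, -0.003 after quantile normalization and 0.25 after another background correction.

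The promoters of the genes are shown because the nuclear subunit genes are known to share binding sites for the factors NRF1, GABP (an ETS factor) and YY1. Promoter sequence was found in RefSeq (GRCh38.p14) for 61 of the 73 subunit genes, as 250 bases before and 50 after the start of the gene. Only the 250 bases before the start were searched for motifs, in these genes and in all other promoters. Below are the 250 bases before the start of 3 genes that rose in both conditions (ATP5MPL, ATP5PF, COX6A1) and of 2 that fell in both (NDUFS1, NDUFS3), each on its own strand, with motif matches in capitals. They lie at chr14:103921530-103921779 on the minus strand, chr21:25735055-25735304 on the minus strand, chr12:120437863-120438112 on the plus strand, chr2:206159445-206159694 on the minus strand and chr11:47578824-47579073 on the plus strand.
ATP5MPL: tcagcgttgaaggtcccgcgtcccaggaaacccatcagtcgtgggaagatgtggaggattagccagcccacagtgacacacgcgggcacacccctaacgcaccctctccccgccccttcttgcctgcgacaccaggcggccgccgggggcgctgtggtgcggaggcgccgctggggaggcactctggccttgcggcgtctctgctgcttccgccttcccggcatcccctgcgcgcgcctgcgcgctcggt
ATP5PF: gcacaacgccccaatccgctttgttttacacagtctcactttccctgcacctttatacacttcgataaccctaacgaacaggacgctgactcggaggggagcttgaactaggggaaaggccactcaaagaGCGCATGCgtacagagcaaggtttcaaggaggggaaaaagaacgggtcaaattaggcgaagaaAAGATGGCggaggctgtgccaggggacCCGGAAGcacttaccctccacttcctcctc
COX6A1: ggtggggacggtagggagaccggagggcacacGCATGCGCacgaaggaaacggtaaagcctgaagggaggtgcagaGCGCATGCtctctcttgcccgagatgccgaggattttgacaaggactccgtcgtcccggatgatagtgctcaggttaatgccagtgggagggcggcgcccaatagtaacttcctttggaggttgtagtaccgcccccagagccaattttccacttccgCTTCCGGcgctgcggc
NDUFS1: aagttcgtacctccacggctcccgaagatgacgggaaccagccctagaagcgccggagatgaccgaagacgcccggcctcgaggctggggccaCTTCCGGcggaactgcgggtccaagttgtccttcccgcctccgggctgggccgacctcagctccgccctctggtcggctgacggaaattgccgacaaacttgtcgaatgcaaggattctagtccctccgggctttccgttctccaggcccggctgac
NDUFS3: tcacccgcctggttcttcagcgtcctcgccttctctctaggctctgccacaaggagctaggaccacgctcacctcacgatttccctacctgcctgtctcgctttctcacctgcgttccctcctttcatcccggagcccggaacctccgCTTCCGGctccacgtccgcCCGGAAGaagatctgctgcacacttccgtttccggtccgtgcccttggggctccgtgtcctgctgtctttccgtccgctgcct

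The motifs searched on both strands were GCATGCGC for NRF1, CCGGAAG for ETS factors and AAGATGGC for YY1, none of which contains another. ATP5PF holds all 3, the NRF1 motif at -120, the YY1 motif at -57 and the ETS motif at -30, counted in bases from the start of the gene. COX6A1 holds 2 NRF1 motifs, at -218 and -174, and an ETS motif at -16, NDUFS1 an ETS motif at -157, and NDUFS3 an ETS motif at -102 and at -83. These letters are not in the window shown for ATP5MPL.

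The shares of promoters with a motif in the 250 bases before the start are given as a description, with no test. Sites after the start were not looked for. An NRF1 motif was in 16.4% of the 61 promoters against 3.26% of 22199 promoters of protein-coding genes, an ETS motif in 24.6% against 10.7%, and a YY1 motif in 1.64% against 1.38%. Any of the motifs was in 36.1% of the subunit promoters, 14.4% of the protein-coding and 11.8% of all 35116 promoters. By the change from 2h25min to 24h, a motif was in 6 of 19 promoters of genes that rose in both conditions (31.6%), in 2 of 4 of genes that fell in both (50%) and in 14 of the other 38 (36.8%). A match is a description of the sequence, and binding was not measured.

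Genes around the machinery were counted from lists by function, and in all of them 0 genes were called between pollen and mock at any time. At an unadjusted p under 0.05 the limma fit held 0 to 4 of 50 assembly factors, 0 to 1 of 15 regulators and 0 to 3 of 17 other subunits, depending on the time. Of the 50 tested assembly factors, which build the complexes, 17 rose and 5 fell between 2h25min and 24h in mock, and 17 rose and 5 fell in pollen, with medians of 0.19 and 0.23. Over all probes 12.5% were called higher and 14.9% lower in mock, and 11.2% and 11.8% in pollen, so the factors called higher were above that share and those called lower were below it. UQCC2, needed for complex III, rose by 0.86 and 0.75, NDUFAF3 by 0.69 and 0.78, COX19 by 0.76 and 0.64 and COA3 by 0.72 and 0.67. COX20 fell by 1.75 and 1.52 and ACAD9, an assembly factor of complex I, by 1.01 and 0.71.

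Of 15 regulators of mitochondrial biogenesis 1 rose and 3 fell in each condition, which for so few genes is near the shares over all probes (12.5% higher and 14.9% lower in mock, 11.2% and 11.8% in pollen). POLRMT, the RNA polymerase of mitochondria, rose by 0.45 and 0.50. PPARGC1A, the coactivator PGC-1 alpha, fell by 1.17 and 1.21. ESRRA fell by 0.29 and TFB1M by 0.35 in mock, and GABPA, a subunit of GABP, by 0.48 in pollen. MYC fell by 1.47 in pollen.

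Of 17 tested subunits and carriers that the names did not pick, complex II and mitochondrially encoded genes among them, 3 rose in mock and 0 were called in pollen, with medians of 0.00 and 0.08, beside 12.5% and 11.2% of all probes called higher. CYCS, which encodes cytochrome c, rose by 0.48, SDHC of complex II by 0.39 and the mitochondrially encoded ND1 by 0.42. In pollen the limma fit held 3 of these 17 at an unadjusted p under 0.05.

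The cell line's own markers moved over the same interval. Of 7 epithelial markers 1 rose and 5 fell in each condition, among them KRT5, a basal keratin, by 2.96 and 2.51, while EPCAM rose by 0.81 and 0.82. Their summed level, in multiples of the array's 75th percentile, went from 191 to 274 in mock and 204 to 258 in pollen at 2h25min to 129 to 168 and 140 to 168 at 24h. Of 5 mesenchymal markers 3 of 4 tested fell, with DCN at -2.67 and -2.65, and PDGFRA was above background on 0 arrays. Their sum went from 87.1 to 113 and 102 to 117 down to 72.2 to 83.5 and 75.5 to 90. The part of these shifts in the results above was not tested.

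Markers of other cells had lower sums. PTPRC and CD14 (blood) and CDH5 (endothelial) were above background on 30 of 30 arrays, SCGB1A1 on 29 and MUC5AC on 27 (airway), and CD3E on 17. The sums at 2h25min and 24h together lay between 0.0619 and 0.118 for 3 markers of differentiated airway cells, between 0.601 and 1.29 for 3 blood markers and between 0.0548 and 0.103 for 2 endothelial markers, with PECAM1 above background on 0 arrays. Of the blood markers CD14 fell by 0.51 in mock. Of the airway markers 0 of 2 tested and of the endothelial markers 0 of 1 tested were called between these times in the limma fit, nor at an unadjusted p under 0.05 (0 of 3).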

How the data were processed

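Gene expression was measured in 30 arrays of the BEAS-2B line, 3 each in mock and pollen at 5 times. The authors deposited spot intensities from Agilent Feature Extraction 11.0.1.1, which per the file headers had background subtracted and detrended within each array, with marks for spots well above background and positions on hg19. A series table of log2 values, which the authors deposited too and per the methods made with limma, served only as an alternative. Of the 29 columns in it that could be compared, 23 matched their own array best and 6, all at 24h, another array of the group.

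In R 4.3.3 with data.table (version 1.17.8) and limma 3.58.1, log2 of the processed intensity minus the 75th percentile of each array over the 33873 probes on both array designs (58201 and 42405 probes) was fitted with 10 group means over all 30 arrays. Residual degrees of freedom were 20 and prior ones 2.35. Of 66733 probes 32100 were tested, each well above background throughout some group, and a call needed a Benjamini-Hochberg adjusted p under 0.05 over all of them and a change of at least 1.1-fold. Each p-value of a gene comes from limma.

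The members, lists, role groups and motifs were chosen with earlier results of these data known. The comparison of 24h with 2h25min was added after the slide layout was seen. Named genes are up to 5 called members in each direction per comparison of times, by size of change and above background on all arrays compared, up to 4 in each direction per comparison with mock, by unadjusted p and with 1 sign in all same-numbered pairs, and 25 subunit and isoform genes listed by name. A gene with several probes is given by the brightest one. The values of 1 gene under this rule are not reported here. Other genes named in the text were picked after their values were seen.

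Deviations of same-numbered mock and pollen arrays from their group means correlated at 0.22 to 0.516 at 10min, 2h25min and 24h, but at -0.12 to 0.348 at 55min and 0.0521 to 0.115 at 6h50min, and per the methods each mock was run beside its pollen exposure. The numbers were thus taken as pairs at 10min, 2h25min and 24h, where the fit with time by replicate number as a block also called 0 members. At 2h25min replicates 1 and 2 of both conditions lay on slide 4 and replicate 3 on slide 5. There a shared slide cannot be told apart from pairing. The naming rule of 1 sign in all same-numbered pairs was also applied at 55min and 6h50min, where the numbers were not taken as pairs. The fit was tested on simulated data for pollen against mock at 24h over 32100 probes. It recovered 1 of 50 probes changed 1.25-fold, 16 of 50 at 1.5-fold, 31 of 50 at 2-fold and 38 of 50 at 3-fold, with 1 false call. The simulated noise was independent between probes and arrays and held no slide or scan effect. The changed probes were drawn at any brightness, so these counts need not hold for the members or for this layout. The number of arrays limits the precision. Alternatives were quantile normalization, normexp background correction (offset 50), the percentile over each array's own probes, no filter, the authors' log2 values, array weights, dim areas left out, slide and replicate blocks, no fold limit, and leaving out each array.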

Additional observations from a re-analysis of the deposited data

How the results depend on the processing

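Between pollen and mock, 0 members were called at all 5 times and in the test over the times under every alternative run, also without any 1 array and with the replicate block, which pairs mock and pollen arrays of 1 number (0 calls). With the replicate number as an additive block the time comparisons gave 0 calls up to 2h25min, 18 and 17 at 6h50min against 2h25min in mock and pollen, 54 and 47 at 24h against 6h50min, and 50 and 42 at 24h against 2h25min, so the block moved no count by over 1.5 times.

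With the percentile over each array's own probes the counts were 1 in mock and 1 in pollen at 6h50min against 2h25min (18 and 16 as reported), 14 and 9 at 24h against 6h50min (54 and 47), and 12 and 5 at 24h against 2h25min (48 and 42). NDUFS1 at 24h against 2h25min then missed the threshold (adjusted p = 0.0696 in mock and 0.114 in pollen by limma). With the slide as a random block the counts were 8 and 5 at 6h50min against 2h25min and 29 and 23 at 24h against 6h50min. With array weights they were 14 in mock at 55min against 10min, 1 in pollen at 2h25min against 55min, 33 in pollen at 6h50min against 2h25min and 75 in mock at 24h against 2h25min. Without the filter they were 11 and 10 at 6h50min against 2h25min and 30 in pollen at 24h against 6h50min. At 6h50min against 2h25min, normexp gave 31 and the deposited log2 values gave 33 in mock, and quantile normalization 27 in pollen. Within slide 5, 24h against 2h25min gave 19 and 16. The cause of these moves was not tested, except that the last one uses fewer arrays. On the 55min pollen array of the other design the percentile was 861.5 over its own probes and 1414 over the probes on both designs. On the 24h arrays it was 252.5 to 316.4 and 1055 to 1324, and all 30 arrays share 1 fit. Shares over all probes under these settings are not given here, so the counts describe only the members.

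Without any 1 array, the counts at 6h50min against 2h25min ran from 9 to 18 in mock (9 without mock 2h25min replicate 2, 10 without mock 6h50min replicate 1) and from 9 to 16 in pollen (9 without pollen 2h25min replicate 2, 10 without pollen 6h50min replicate 2). At 24h against 6h50min they ran from 40 to 51 in mock and from 31 to 46 in pollen (31 without pollen 6h50min replicate 1), and at 24h against 2h25min from 36 to 44 in mock and from 25 to 40 in pollen (25 without pollen 24h replicate 1, 27 without pollen 2h25min replicate 3). Of 792 values of the 99 named results under the alternatives, 703 kept their direction and side of the threshold, 83 kept the direction and missed the threshold, and 6 values that had not been called changed sign. The 99 mix differences of pollen from mock, none of them called, with changes between times that were picked as called. All 83 values that missed the threshold belong to the called changes. The pooled count of 703 is therefore no measure of how stable the calls are. With 3 arrays a group and dim probes near background, small changes could not be told from the spread.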
